A study of Mus musculus with 11 samples.

Results

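The mitochondrial ribosomal protein genes are described here across 4 groups of melanoma cells. The cells were of the mouse line B16-OVA (strain C57BL/6J), B16 cells that carry the chicken ovalbumin antigen. The members are the 78 genes whose symbols read Mrpl or Mrps, then a number and at most 1 letter, among the 54686 entries of the deposited expression table. Of these, 49 are named for the large ribosomal subunit (Mrpl) and 29 for the small subunit (Mrps). A further 5 Mrp entries ending in -ps or in -ps with a number, the suffix of pseudogenes, were left out. All cells were transfected with siRNA, either a control siRNA or a pool of siRNAs that targets the transcriptional coactivators YAP (gene Yap1) and TAZ (gene Wwtr1). Starting 48 h after transfection, heated cells spent 1 h at 45 °C and had 6 h of recovery at 37 °C, and unheated cells had no heat. When the unheated cells were harvested is not given in the sources used here, so in each heat comparison heat and time after transfection cannot be told apart. The groups were control siRNA unheated (n = 3 libraries), control siRNA heated (n = 2, replicates 1 and 3), YAP/TAZ siRNA unheated (n = 3) and YAP/TAZ siRNA heated (n = 3). Replicate 2 of the heated control was not analysed here. The series asks how YAP and TAZ affect the transcriptome response to heat. Nothing in the labels says whether the replicates were separate cultures, so a p-value here reflects the spread between these libraries alone, which may be technical.

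Mitochondria have their own ribosome, the mitoribosome, which translates the few proteins encoded by mitochondrial DNA, all of them subunits of the oxidative phosphorylation complexes. Its RNA comes from mitochondrial DNA, while its proteins are encoded in the nucleus, made in the cytosol and imported. Some of these proteins are relatives of bacterial ribosomal proteins, and others are found only in mitochondria. Nuclear genes of mitochondrial proteins often carry NRF1, ETS-family (GABPA) or YY1 motifs in their promoters, whereas YAP and TAZ act through TEAD factors and heat shock acts through HSF1 on heat shock elements.

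Promoter stretches of 6 members are shown because these members span the responses described further on. Whether a motif went with a response was not tested. The stretches hold no annotated exon base (GENCODE M21), lie upstream of the RefSeq start and come from the RefSeq promoter windows of GRCm38.p6, written 5′ to 3′ on the gene's strand. That of Mrpl1 lies inside the GENCODE gene, downstream of its earliest annotated start. Capitals mark matches, on either strand, to the NRF1 letters GCGCA, 1 base of any kind, then GCGC (Mrpl12, Mrpl45), the ETS letters CCGGAAG (Mrpl34, Mrps18a) and the TEAD letters GGAATG (Mrpl45, Mrpl50, Mrpl1).
Mrpl12, chr11:120484476-120484595, plus strand: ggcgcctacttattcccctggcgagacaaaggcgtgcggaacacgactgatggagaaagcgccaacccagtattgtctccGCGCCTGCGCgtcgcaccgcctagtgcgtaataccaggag
Mrpl45, chr11:97315516-97315635, plus strand: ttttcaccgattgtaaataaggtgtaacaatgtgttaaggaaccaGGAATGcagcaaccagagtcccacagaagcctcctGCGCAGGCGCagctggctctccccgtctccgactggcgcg
Mrpl34, chr8:71464806-71464925, plus strand: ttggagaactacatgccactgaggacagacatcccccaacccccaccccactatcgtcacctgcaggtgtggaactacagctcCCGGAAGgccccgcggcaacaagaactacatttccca
Mrps18a, chr17:46110866-46110985, plus strand: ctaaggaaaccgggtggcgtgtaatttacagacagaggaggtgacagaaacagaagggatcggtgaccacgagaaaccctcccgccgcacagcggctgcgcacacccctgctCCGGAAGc
Mrpl50, chr4:49521094-49521175, minus strand: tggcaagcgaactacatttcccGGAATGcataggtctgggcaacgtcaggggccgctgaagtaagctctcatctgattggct
Mrpl1, chr5:96209865-96209984, plus strand: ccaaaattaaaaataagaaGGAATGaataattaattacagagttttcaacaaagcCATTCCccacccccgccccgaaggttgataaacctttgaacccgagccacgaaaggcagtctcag

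RefSeq windows, each 250 bases before to 50 bases after a gene's start, were found for 69 of the 78 members, in 75 windows. The ETS letters stood in 34.7% of the member windows, against 8.86% of all 32851 windows and 19.1% of the 10775 windows of genes tested for expression. The NRF1 letters stood in 17.3% of member windows, against 4.6% of all windows and 10.9% of those of tested genes. The YY1 letters, AAGATGG followed at once by CGGC, were in 6.67% of member windows, 0.633% of all windows and 1.68% of windows of tested genes. In all, 38 of the 69 members with windows held at least 1 of these 3 motifs. The share of all tested genes that did was not computed. The TEAD letters were in 10.7% of member windows, below the 14.7% of all windows and near the 11.8% of tested genes, in 8 members: Mrpl1, Mrpl22, Mrpl44, Mrpl45, Mrpl46, Mrpl50, Mrps11 and Mrps22. The heat shock element letters, GAA, TTC and GAA with 2 bases of any kind between each, were in 0 of the 75 member windows in 0.603% of all windows and in 0.501% of those of tested genes. The Sp1 letters GGGCGG were in 52% of member windows, above the 35.7% of all windows and below the 64.8% of tested genes. The E-box CACGTG (9.33%, against 7.15% and 10.4%) and the cyclic AMP element TGACGTCA (2.67%, against 1.79% and 3.15%) also lay between the 2 backgrounds, and the letters CCAAT were in 40%, against 37.4% and 37.8%. All searches covered both strands, and overlapping matches of different motifs were each counted. A match describes the letters in the window, not a bound site.

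Expression was deposited as FPKM, a fragment count scaled by transcript length and library size, so levels can be compared between genes. Changes are differences of log2(FPKM + 1), which understate the change of low genes. A gene is called where the limma test, adjusted over all 12626 tested genes by the Benjamini-Hochberg method, gave p under 0.05. The smallest steps of the FPKM values put the depth at about 30400000 to 43900000 fragments per library, with 34100000 and 36500000 in the heated control libraries. Yap1 read 5.79 to 15.6 FPKM in the 5 control siRNA libraries and 2.26 to 3.02 FPKM in the 6 YAP/TAZ siRNA libraries. Wwtr1 read 5.37 to 8.47 FPKM under control siRNA and 1.40 to 1.83 FPKM under YAP/TAZ siRNA. Both target genes were called lower with the siRNA, with and without heat. All 8 melanocyte lineage markers reached 1 FPKM in some library, and their sum was 6287 to 8277 FPKM. Fibroblast markers summed to 1.02 to 3.16 FPKM with Dcn at 0 throughout, macrophage markers to 1.47 to 6.70 FPKM with Ptprc at 0, and lymphocyte markers to 0.0437 to 1.92 FPKM. The heated control libraries had the highest sums of 3 lists. Their macrophage sum was 6.18 and 6.70 FPKM, above the 1.47 to 3.24 FPKM of the others, their lymphocyte sum 1.89 and 1.92 FPKM, above at most 0.365 FPKM, and their endothelial sum 0.995 and 1.15 FPKM, above at most 0.135 FPKM. Cd79a, the 1 lymphocyte marker tested, was higher by 1.21 with heat under control siRNA (adjusted p = 1.8e-05), while Cd8a and Ms4a1 were at 0 in all libraries. Endothelial markers summed to at most 1.15 FPKM with Cdh5 at 0, and keratinocyte markers to at most 0.0807 FPKM with Krt10 at 0. The part of these markers in the results was not tested.

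All 78 members passed the filter of 1 FPKM in at least 2 libraries, and all 78 were above 1 FPKM in all 11 libraries. The median member had a mean level of 14.9 FPKM over the libraries, against 6.24 FPKM for the median tested gene. Mrpl12, the protein of the flexible stalk that recruits translation factors, had the highest mean level at 82.0 FPKM. Its lowest library, at 59.4 FPKM, was above the highest library of Mrpl34, at 56.6 FPKM. Mrpl34 (mean 42.8 FPKM) and Mrpl28 (41 FPKM) came next, and their libraries overlapped. At the other end were Mrps30 (3.75 FPKM), Mrpl1 (3.11 FPKM) and Mrps17 (2.84 FPKM), which also overlapped one another. Mrps17, with 2.17 FPKM in its lowest library, was the member nearest to the filter, and no member fell outside it. The relatives of bacterial large subunit proteins (29 genes) had a median mean level of 17.1 FPKM, those of bacterial small subunit proteins (16 genes) 13.0 FPKM, the mitochondrion-specific large subunit proteins (22 genes) 13.3 FPKM and the mitochondrion-specific small subunit proteins (10 genes) 13.8 FPKM.

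For 33 members an exon overlaps an exon of another annotated gene (GENCODE M21), for 28 of them on the opposite strand. Whether the fragments were counted by strand is not given in the sources used here, and without strand such pairs cannot be told apart. Among the members named below this touches Mrpl10, Mrpl12, Mrpl13, Mrpl14, Mrpl18, Mrpl19, Mrpl21, Mrpl24, Mrpl43, Mrpl44, Mrpl46, Mrpl48, Mrpl49, Mrpl51, Mrpl53, Mrpl58, Mrps11, Mrps18b, Mrps18c and Mrps30. Reads of near-identical copies may also be split: Mrps36-ps1 had a mean of 16.8 FPKM beside 10.4 FPKM for Mrps36, and Mrpl48-ps 7.08 FPKM beside 4.05 FPKM for Mrpl48. Mrpl23-ps1 had a mean of 5.05 FPKM beside 5.31 FPKM for Mrpl23. The values of Mrps36, Mrpl48 and Mrpl23 are uncertain for that reason.

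Summed over the 78 genes, the message of the mitoribosome was highest in unheated control cells and in heated YAP/TAZ siRNA cells. The sums were 1453, 1436 and 1571 FPKM in unheated control cells, 1169 and 1232 FPKM in heated control cells, 1196, 1144 and 1333 FPKM in unheated YAP/TAZ siRNA cells, and 1463, 1375 and 1576 FPKM in heated YAP/TAZ siRNA cells. The first and last groups overlapped each other, the middle 2 groups overlapped each other, and the 2 pairs did not overlap. Replicate 3 had the highest sum in each of the 4 groups, and replicate 2 the lowest in each of the 3 groups that have it. As a share of all FPKM in a library, the members held 0.463 to 0.494% in unheated control cells, 0.358 to 0.371% in heated control cells, 0.375 to 0.413% in unheated YAP/TAZ siRNA cells and 0.404 to 0.437% in heated YAP/TAZ siRNA cells. On that scale heated YAP/TAZ siRNA cells stood below unheated control cells and overlapped unheated YAP/TAZ siRNA cells. Total FPKM was 340500 to 360500 in heated YAP/TAZ siRNA cells and 310000 to 317900 in unheated control cells. In bulk RNA, fewer cells of a kind and less RNA per cell cannot be told apart.

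**Figure D1:**
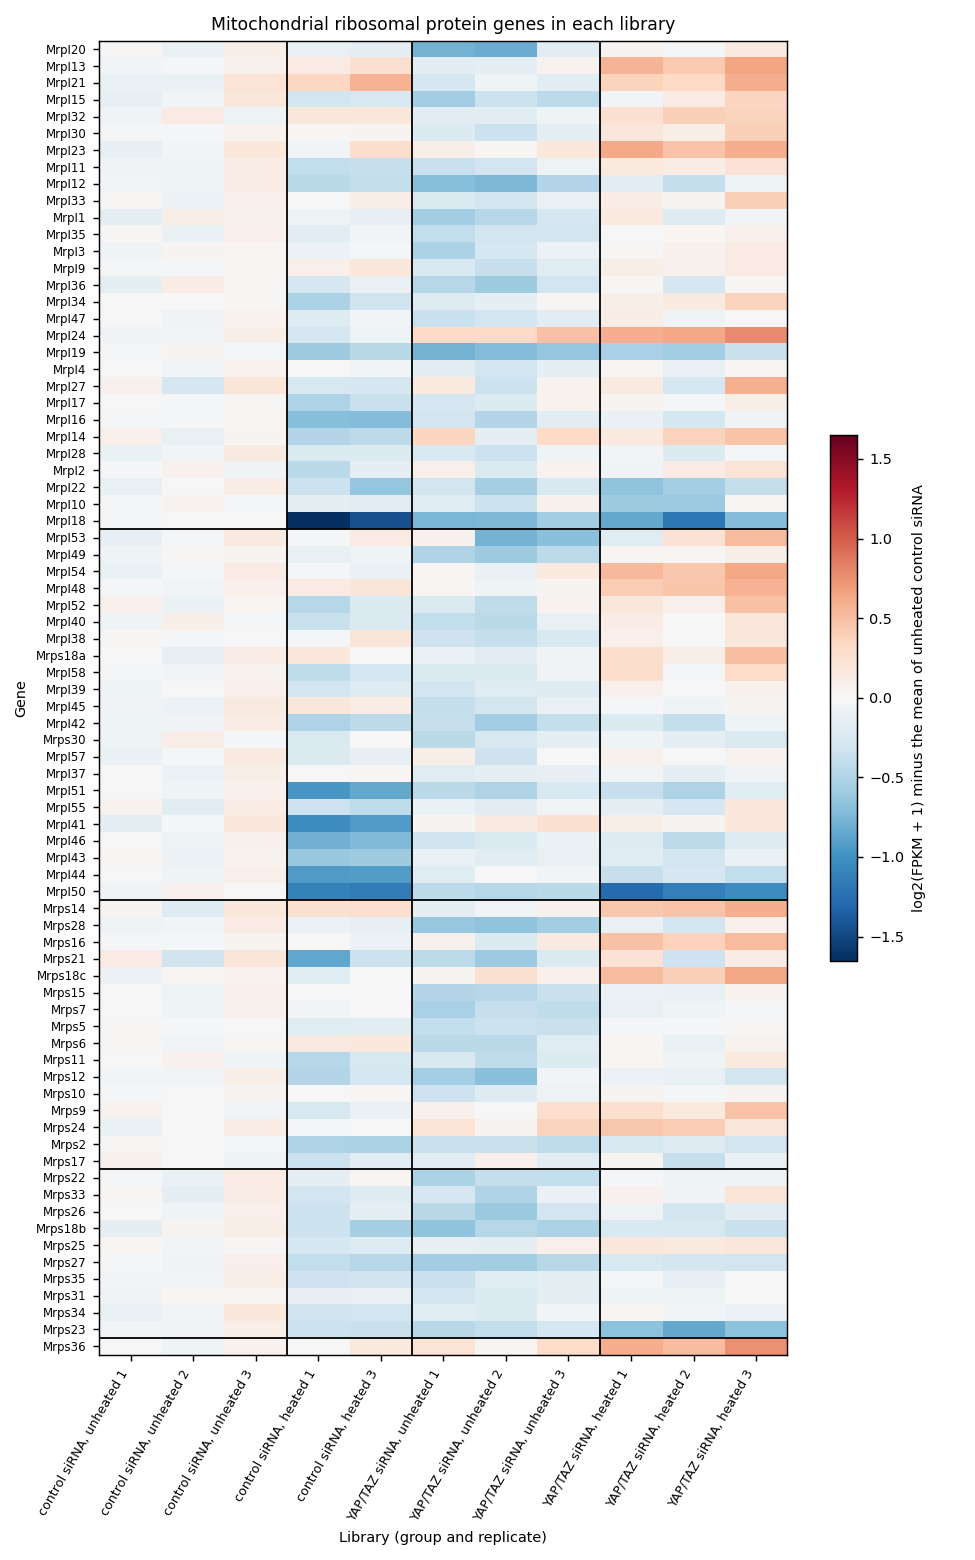
Each row is 1 of the 78 genes and each column 1 of the 11 libraries. Colour gives log2(FPKM + 1) minus the gene's mean in unheated control siRNA cells, black lines part the groups and the roles (from the top, bacterial-type large, mitochondrion-specific large, bacterial-type small, mitochondrion-specific small, Mrps36), and rows are ordered within a role by the heat response under YAP/TAZ siRNA; blue prevails in the heated control and unheated YAP/TAZ siRNA columns.

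With heat under control siRNA, 30 of the 78 members were lower and 1 was higher. The 38.5% lower is near the 36.9% of all tested genes that were lower, and 12.4% of all tested genes were higher, so the share of lower members says nothing particular about them. The median member changed by -0.20 on the log2 scale and the median tested gene by -0.16. Median-of-ratios scaling moved the median of all tested genes to -0.02, and then 14 members were lower, 9 were higher and the median member was at -0.04. With quantile normalization the counts were 16 lower and 9 higher, and with each library set to 1 total 43 lower and 1 higher. Under median-of-ratios scaling, quantile normalization and 1 total, 17.9, 20.5 and 55.1% of members were lower. Among all tested genes it was 24.5, 25.8 and 42.5%, so the members stood below or above the background depending on the scaling. Leaving out heated control replicate 1 left that group with 1 library. The median member was then at -0.16 and the median tested gene at -0.16. Fewer members were then called lower, and their share lay below that of all tested genes. The 1 member higher became 2 without unheated control replicate 2 or 3 or unheated YAP/TAZ siRNA replicate 3.

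With heat under YAP/TAZ siRNA, 50 members were higher and 3 were lower. Among all tested genes 18.6% were higher and 31.7% lower, while 64.1% of the members were higher. The median member changed by 0.30 and the median tested gene by -0.09. Scaling each library to 1 total, which put the median tested gene at -0.22, left 32 members higher and 9 lower, with a median of 0.15. Median-of-ratios scaling and quantile normalization each gave 55 higher and 3 lower. In the order 1 total, median-of-ratios and quantile, 41, 70.5 and 70.5% of members were higher, against 11.2, 24.2 and 21.6% of all tested genes. Without heated YAP/TAZ siRNA replicate 3, 5 members were lower.

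These 2 heat comparisons use no library in common. Of the 30 members lower with heat under control siRNA, 13 were higher with heat under YAP/TAZ siRNA, 14 were not called and 3 were lower again (Mrpl44, Mrpl50 and Mrps23). Another 36 members were not called under control siRNA and were higher under YAP/TAZ siRNA. The share of all tested genes with each of these pairs of calls was not computed, so the counts are not read as particular to the members. By sign alone, 50 of the 78 members changed below 0 with control siRNA and above 0 with YAP/TAZ siRNA, and 0 the other way round. Among all 12626 tested genes 21.8% had the first pattern, against 64.1% of the members, and 13.8% the second. With 1 total per library, median-of-ratios scaling and quantile normalization, 46, 38 and 33 members had the first pattern and 0 the second, and among all tested genes the first was at 14.9, 19.1 and 21.3%.

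The difference of the 2 heat responses, which tests whether heat acted differently under the 2 siRNAs, was higher under YAP/TAZ siRNA for 53 members and lower for 0. At 67.9% this compares with 24.6% of all tested genes called higher and 13.4% called lower. The median difference was 0.49 for the members and 0.11 for all tested genes. With 1 total per library, median-of-ratios scaling and quantile normalization the count was 45, 44 and 41. That was 57.7, 56.4 and 52.6% of the members, against 18, 19.2 and 19% of all tested genes called higher. Leaving out heated control replicate 1 left that group with 1 library. The median difference was then 0.46 for the members and 0.11 for all tested genes. The log2 difference was above 0 for 77 of the 78 members, the exception being Mrpl10 at -0.05.

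**Figure D2:**
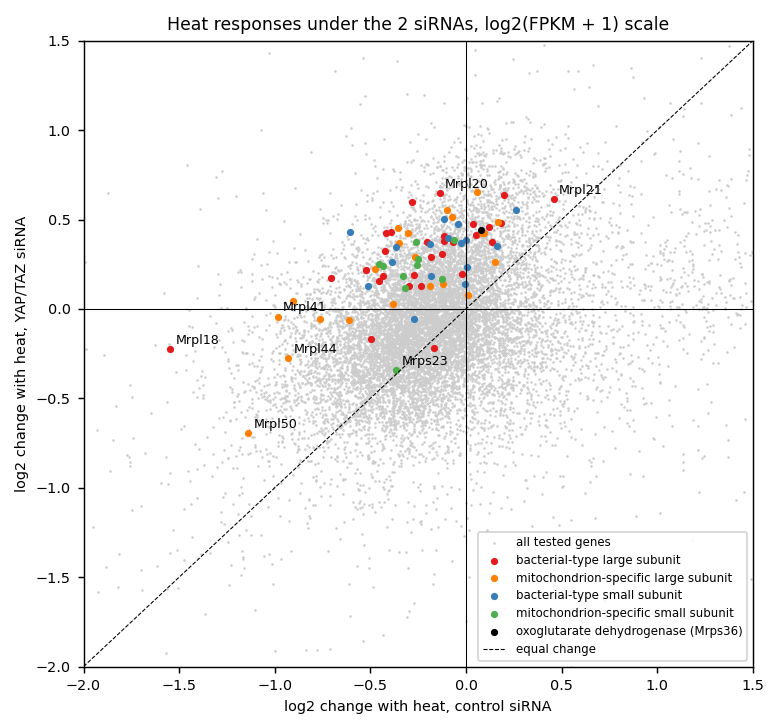
Each coloured point is 1 of the 78 genes by role and each grey point 1 tested gene within the axes. The x axis is the log2 change with heat under control siRNA and the y axis that under YAP/TAZ siRNA; all members except Mrpl10 lie above the dashed line of equal change, and Mrpl18 and Mrpl50 lie farthest left at -1.55 and -1.14.

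Without heat, YAP/TAZ siRNA went with lower levels of 44 members and higher levels of 1, Mrpl24. The 56.4% lower compares with 21.9% of all tested genes lower and 27.1% higher. The median member changed by -0.24 and the median tested gene by 0.02. The count lower was 47, 49 and 45 under 1 total per library, median-of-ratios scaling and quantile normalization. This was 60.3, 62.8 and 57.7% of the members, against 21.7, 26.5 and 23.8% of all tested genes. Quantile normalization called 3 members higher, and the fit without unheated YAP/TAZ siRNA replicate 2 called 4 higher, and that without unheated control replicate 3 called 2.

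After heat, YAP/TAZ siRNA went with higher levels of 36 members and a lower level of 1, Mrps23. The 46.2% higher compares with 36.3% of all tested genes higher and 17.9% lower. The median member changed by 0.22 and the median tested gene by 0.13. The counts moved to 25 and 6 under median-of-ratios scaling, to 26 and 4 with quantile normalization, and to 30 and 4 with 1 total per library. All tested genes then stood at 26.6, 29.4 and 29.5% higher, in that order, and the members at 32.1, 33.3 and 38.5%. Leaving out heated control replicate 1 left that group with 1 library. The median member was then at 0.22 and the median tested gene at 0.14. The share of members called higher was then near that of all tested genes. Without replicate 3 of either YAP/TAZ siRNA group, 2 members were lower. The comparisons of YAP/TAZ siRNA without and with heat share no library. In them, 14 members were lower without heat and higher after heat, 29 were lower without heat and not called after heat, 21 were not called without heat and higher after heat, and Mrps23 was lower in both. For these pairs of calls too, the share of all tested genes was not computed.

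The members follow by role, and the counts at the end of each role are read against the shares of all tested genes: 12.4% higher and 36.9% lower with heat under control siRNA, 18.6% and 31.7% with heat under YAP/TAZ siRNA, 27.1% and 21.9% with the siRNA without heat, and 36.3% and 17.9% with it after heat.

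The stalk of the large subunit, where translation factors dock, is built on Mrpl10 with copies of Mrpl12 attached, and Mrpl11 lies at its base. Mrpl12 (chr11:120484613-120489065 on GRCm38, gene ENSMUSG00000039640), which is also known to bind the mitochondrial RNA polymerase, read 96.8, 95.3 and 109 FPKM in unheated control cells, 73.7 and 76.0 FPKM in heated control cells, 61.2, 59.4 and 71.6 FPKM in unheated YAP/TAZ siRNA cells, and 87.8, 76.3 and 94.8 FPKM in heated YAP/TAZ siRNA cells. The unheated YAP/TAZ siRNA libraries were the lowest and did not overlap the other groups. Mrpl12 fell by 0.42 (SE 0.11, adjusted p = 0.00959) with heat under control siRNA and rose by 0.42 (SE 0.10, adjusted p = 0.00549) with heat under YAP/TAZ siRNA. The difference of these responses was 0.84 (SE 0.14, adjusted p = 0.00192). The siRNA without heat lowered it by 0.64 (SE 0.10, adjusted p = 4.3e-04), and after heat its change was 0.20 (adjusted p = 0.147). Only the fall with heat under control siRNA lost its call without heated control replicate 1, where it was -0.39.

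Mrpl11 went from 10.2 ± 0.84 FPKM (SD, n = 3) to 7.55 ± 0.069 (n = 2) with heat under control siRNA, and from 8.43 ± 1.0 (n = 3) to 11.7 ± 0.54 (n = 3) with heat under YAP/TAZ siRNA. The heat responses of Mrpl11 differed by 0.82 (SE 0.12, adjusted p = 9.9e-04). Its fall of 0.26 with the siRNA without heat lost its call when any of 3 libraries was left out, at -0.22 to -0.20: unheated control replicate 3 and unheated YAP/TAZ siRNA replicates 1 and 2. Mrpl10 was called in 0 of the 5 comparisons, with changes between -0.22 and -0.05. Its 2 lower libraries were heated YAP/TAZ siRNA replicates 1 and 2, at 14.7 and 14.6 FPKM, while replicate 3 of that group was at 23.2 FPKM, among the highest.

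Mrpl18 (chr17:12911349-12916345, ENSMUSG00000057388), a relative of the bacterial protein that binds 5S RNA and a gene with a cytosolic protein form reported in heat-stressed cells, had the largest fall with heat of the 78 members. It read 44.3, 44.9 and 45.2 FPKM in unheated control cells, 13.6 and 15.8 FPKM in heated control cells, 26.1, 26.4 and 29.7 FPKM in unheated YAP/TAZ siRNA cells, and 24.4, 19.1 and 26.8 FPKM in heated YAP/TAZ siRNA cells. The unheated control libraries stood above all others, the heated control libraries below all others, and the 2 YAP/TAZ siRNA groups overlapped. Heat under control siRNA lowered Mrpl18 by 1.55 (SE 0.12, adjusted p = 1.0e-05), while under YAP/TAZ siRNA the change was -0.23 (SE 0.11, adjusted p = 0.12). The difference of 1.32 (SE 0.17, adjusted p = 3.9e-04) was the largest of the members. The siRNA lowered it by 0.69 without heat (SE 0.11, adjusted p = 7.2e-04) and raised it by 0.63 after heat (SE 0.12, adjusted p = 0.00222). The gene's start lies inside Tcp1, a chaperonin subunit gene on the opposite strand with a mean of 70.6 FPKM. Tcp1 had no call with heat under control siRNA (-0.06) or with the siRNA after heat (-0.07). It was lower by 0.58 with the siRNA without heat and had a difference of heat responses of 0.51, both called and in the direction of Mrpl18, and was higher by 0.45 with heat under YAP/TAZ siRNA. The part of Tcp1 fragments in the values of Mrpl18 was not tested.

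Mrpl20, Mrpl13 and Mrpl15 rose with heat under YAP/TAZ siRNA and had no call with heat under control siRNA. Mrpl20, whose bacterial relative acts early in subunit assembly, read 33.7, 30.6 and 35.6 FPKM in unheated control cells, 30.5 and 29.8 in heated control cells, 18.9, 18.4 and 29.3 in unheated YAP/TAZ siRNA cells, and 34.5, 32.5 and 36.9 in heated YAP/TAZ siRNA cells. Replicate 3 of the unheated YAP/TAZ siRNA cells lay close to the heated control libraries and far from its own group. The rise with heat under YAP/TAZ siRNA was 0.65 (SE 0.15, adjusted p = 0.00639), and the fall with the siRNA without heat was 0.59 (SE 0.15, adjusted p = 0.00928). For Mrpl20 the heat responses differed by 0.79 (SE 0.23, adjusted p = 0.0229). That call was lost without unheated control replicate 3 or either heated control library, at 0.74 to 0.80.

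Mrpl13, a relative of an early-assembling bacterial protein, went from 13.6 ± 0.59 to 15.8 ± 1.0 FPKM with heat under control siRNA and from 12.8 ± 1.3 to 20.4 ± 1.7 FPKM under YAP/TAZ siRNA. The second change was 0.64 (SE 0.08, adjusted p = 2.8e-04) and the first 0.20 (adjusted p = 0.096). Mrpl13 lost its difference of heat responses (0.44, adjusted p = 0.0197) and its higher level with the siRNA after heat (0.35, adjusted p = 0.00937) without heated control replicate 1, where they were 0.38 and 0.29. Mrpl15, a relative of bacterial L15, rose by 0.60 (SE 0.11, adjusted p = 0.00241) with heat under YAP/TAZ siRNA, from 5.57 ± 0.51 to 9 ± 1.4 FPKM. Its change under control siRNA was -0.28 (adjusted p = 0.0966), and the difference was 0.88 (SE 0.17, adjusted p = 0.00378). Mrpl53, a mitochondrion-specific gene, had a change of 0.65 as well (adjusted p = 0.0436), but its libraries overlapped between the groups, so it is named after its value was seen.

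Mrpl21 was the 1 member higher with heat under control siRNA. It read 10.4, 10.4 and 13.4 FPKM in unheated control cells, 14.6 and 17.3 in heated control cells, 9.13, 10.7 and 9.78 in unheated YAP/TAZ siRNA cells, and 14.9, 14.5 and 17.6 in heated YAP/TAZ siRNA cells. All 5 heated libraries were above all 6 unheated ones. It rose by 0.46 (SE 0.13, adjusted p = 0.0146) and by 0.61 (SE 0.11, adjusted p = 0.00211), and the 2 responses were not called different (0.15, SE 0.17, adjusted p = 0.517). The first rise lost its call without heated control replicate 3, at 0.35.

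Mrpl24, whose bacterial relative starts the folding of the large subunit RNA, was the 1 member higher with YAP/TAZ siRNA without heat. It read 18.2, 18.3 and 20.3 FPKM in unheated control cells, 15.5 and 17.8 in heated control cells, 23.9, 24 and 26.9 in unheated YAP/TAZ siRNA cells, and 29.2, 30 and 33.1 in heated YAP/TAZ siRNA cells. The 4 groups did not overlap, in the order heated control, unheated control, unheated YAP/TAZ siRNA and heated YAP/TAZ siRNA. The siRNA raised Mrpl24 by 0.38 (SE 0.08, adjusted p = 0.00262) without heat and by 0.85 (SE 0.09, adjusted p = 3.8e-05) after heat. Its difference of heat responses, 0.47 (adjusted p = 0.0105), lost its call without heated control replicate 1, at 0.38.

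Mrpl19 and Mrpl14 add 2 further patterns. Mrpl19, whose bacterial relative lies at the interface of the subunits, went from 13.2 ± 0.44 to 8.89 ± 0.64 FPKM with heat under control siRNA, and stood at 7.70 ± 0.41 and 9.11 ± 0.76 FPKM in unheated and heated YAP/TAZ siRNA cells. Its fall of 0.71 (SE 0.07, adjusted p = 2.5e-05) with the siRNA without heat was the largest of the members in that comparison. The rise of 0.22 with heat under YAP/TAZ siRNA (adjusted p = 0.0236) lost its call without any of 3 libraries, at 0.16 to 0.21: unheated YAP/TAZ siRNA replicates 1 and 2 and heated replicate 3. Mrpl14, the docking site of the silencing factor Malsu1, stood at 19.7 ± 1.5 and 14.1 ± 0.34 FPKM in unheated and heated control cells and at 22.8 ± 4.4 and 25.3 ± 2.8 FPKM in the YAP/TAZ siRNA cells. It was higher by 0.79 (SE 0.15, adjusted p = 0.00181) with the siRNA after heat. The fall of Mrpl14 with heat under control siRNA (0.45, adjusted p = 0.0317) lost its call without unheated control replicate 1 or 3 or either heated control library, at -0.48 to -0.41. Its difference of heat responses (0.61, adjusted p = 0.0395) lost its call without any of 6 libraries, at 0.55 to 0.64.

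Mrpl34, a relative of bacterial L34, read 43.7, 43.5 and 44.4 FPKM in unheated control cells, 30.3 and 34.6 in heated control cells, 37.6, 39.0 and 44.6 in unheated YAP/TAZ siRNA cells, and 47.1, 48.8 and 56.6 in heated YAP/TAZ siRNA cells. The heated control libraries were the lowest and the heated YAP/TAZ siRNA libraries the highest. For Mrpl34 the heat responses differed by 0.75 (SE 0.13, adjusted p = 0.00196), and its fall of 0.42 with heat under control siRNA lost its call without heated control replicate 1, at -0.33. Mrpl28, a relative of bacterial L28, was called in 0 of the 5 comparisons, with group means of 44.8, 37.8, 38.3 and 41.9 FPKM. Mrpl1 was lower by 0.44 with the siRNA without heat (adjusted p = 0.00992) and higher by 0.41 with heat under YAP/TAZ siRNA (adjusted p = 0.0148), the second lost without replicate 1 of either YAP/TAZ siRNA group, at 0.35 and 0.31. Its difference of 0.52 (adjusted p = 0.0372) was lost without any of 8 libraries, at 0.43 to 0.55. Over the 29 bacterial-type large subunit genes, 1 was higher and 9 lower with heat under control siRNA, and 20 higher and 0 lower with heat under YAP/TAZ siRNA. The siRNA went with 16 lower and 1 higher without heat, and with 11 higher and 0 lower after heat. The shares in the direction of most members were 31, 69, 55.2 and 37.9% in this order, so the first lay below that of all tested genes and the last near it.

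**Figure D3:**
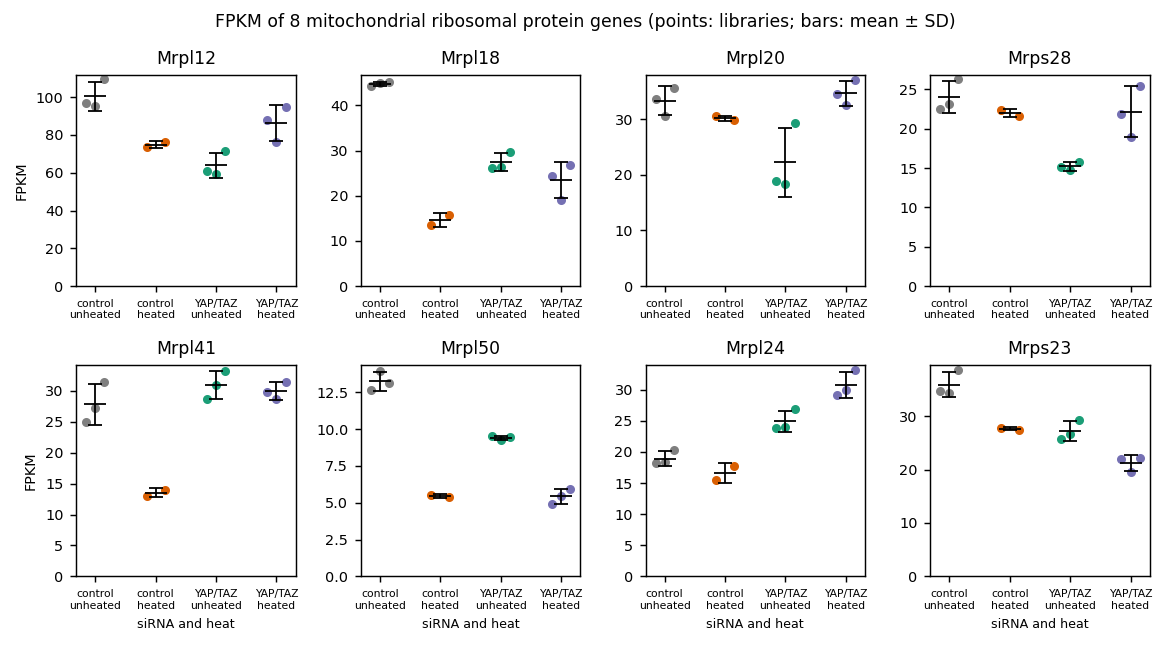
FPKM of 8 members, each on its own axis from 0. Points are libraries, and bars are the mean and SD (n = 3, and n = 2 for heated control cells). Mrpl18, Mrpl41 and Mrpl50 are lowest or near lowest in heated control cells, Mrpl12, Mrpl20 and Mrps28 in unheated YAP/TAZ siRNA cells, Mrpl24 is highest and Mrps23 lowest in heated YAP/TAZ siRNA cells.

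Among the relatives of bacterial small subunit proteins, Mrps28, a relative of the bacterial protein S1, was lower in unheated YAP/TAZ siRNA cells than anywhere else. It read 22.5, 23.2 and 26.3 FPKM in unheated control cells, 22.4 and 21.7 in heated control cells, 15.2, 14.7 and 15.8 in unheated YAP/TAZ siRNA cells, and 21.9, 19.0 and 25.5 in heated YAP/TAZ siRNA cells. Only the unheated YAP/TAZ siRNA libraries stood apart, below all 8 others. The siRNA lowered Mrps28 by 0.62 without heat (SE 0.10, adjusted p = 5.5e-04), its change after heat was 0.00 (SE 0.11, adjusted p = 0.994), and heat under YAP/TAZ siRNA raised it by 0.50 (SE 0.10, adjusted p = 0.00235). The difference of the heat responses was 0.62 (SE 0.14, adjusted p = 0.00884).

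Mrps2, a relative of bacterial S2, differed little between libraries of a group. It read 12.1, 12 and 11.8 FPKM in unheated control cells, 8.13 and 8.06 in heated control cells, 9.10, 9.08 and 8.74 in unheated YAP/TAZ siRNA cells, and 9.93, 10.2 and 9.49 in heated YAP/TAZ siRNA cells. No group overlapped another. Mrps2 fell by 0.51 (SE 0.05, adjusted p = 2.4e-05) with heat under control siRNA and by 0.38 (SE 0.04, adjusted p = 7.1e-05) with the siRNA without heat. Its rise of 0.13 with heat under YAP/TAZ siRNA (adjusted p = 0.0332) turned to -0.02 with 1 total per library, and was lost without any of 5 libraries, at 0.10 to 0.14.

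Mrps12, the protein of the decoding centre, read 22.5, 20.6 and 32.6 FPKM in unheated YAP/TAZ siRNA cells, with replicate 3 at the level of unheated control cells (32.7, 32.7 and 36.1 FPKM). Its fall of 0.44 with the siRNA without heat (adjusted p = 0.0354) was lost without any of 5 libraries, at -0.46 to -0.31, and its difference of heat responses (0.65, adjusted p = 0.0453) without any of 9, at 0.52 to 0.75. Mrps21, a relative of bacterial S21, was as spread, with 34.7, 24.9 and 36.2 FPKM in unheated control cells and 17 and 24.3 FPKM in heated control cells. The heat responses of Mrps21 differed by 1.04 (SE 0.30, adjusted p = 0.0233), lost without any of 5 libraries, at 0.79 to 0.97. Its fall of 0.61 with heat under control siRNA (adjusted p = 0.0471) was lost without any of 7, at -0.61 to -0.36, and its rise of 0.61 with the siRNA after heat (adjusted p = 0.0414) without any of 5, at 0.37 to 0.61. Mrps17, with group means between 2.44 and 3.14 FPKM, was called in 0 comparisons. Over the 16 bacterial-type small subunit genes, 0 were higher and 4 lower with heat under control siRNA, and 11 higher and 0 lower with heat under YAP/TAZ siRNA. The siRNA went with 9 lower and 0 higher without heat, and with 8 higher and 0 lower after heat. These shares were 25, 68.8, 56.2 and 50%, the first again below that of all tested genes.

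Mammals have 3 relatives of the bacterial protein S18, and structures place Mrps18b and Mrps18c in the small subunit and Mrps18a in the large one. In the counts by role, Mrps18c is placed with the bacterial-type small subunit genes. Although also relatives of S18, Mrps18a and Mrps18b are counted with the mitochondrion-specific genes of their subunits. Mrps18b went from 16.8 ± 1.7 to 12 ± 1.2 FPKM with heat under control siRNA and stood at 11.1 ± 0.84 and 13.4 ± 0.61 FPKM in unheated and heated YAP/TAZ siRNA cells. It fell by 0.45 with heat under control siRNA (adjusted p = 0.00344) and by 0.55 with the siRNA without heat (adjusted p = 5.7e-04), and its difference of heat responses was 0.71 (SE 0.13, adjusted p = 0.00265). Its rise of 0.25 with heat under YAP/TAZ siRNA (adjusted p = 0.0339) was lost without any of 4 libraries, at 0.20 to 0.27. Mrps18c had no called change with heat under control siRNA (-0.09) or with the siRNA without heat (0.12), but rose by 0.40 with heat under YAP/TAZ siRNA (adjusted p = 0.00451) and was higher by 0.62 with the siRNA after heat (adjusted p = 5.9e-04). Its difference of heat responses was 0.49 (adjusted p = 0.0155), lost without heated control replicate 1, at 0.39. Mrps18a was called in 1 comparison, a rise of 0.42 with heat under YAP/TAZ siRNA (adjusted p = 0.00856). The differences between the 3 genes were not tested.

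Of the mitochondrion-specific large subunit proteins, Mrpl41 (chr2:24974117-24975098, ENSMUSG00000036850), which is also reported to bind BCL2, had the third largest fall with heat under control siRNA, after Mrpl18 and Mrpl50. It read 25, 27.1 and 31.4 FPKM in unheated control cells, 13 and 14 in heated control cells, 28.6, 31.0 and 33.2 in unheated YAP/TAZ siRNA cells, and 29.8, 28.6 and 31.5 in heated YAP/TAZ siRNA cells. The heated control libraries stood alone, and the other 3 groups overlapped. Heat under control siRNA lowered Mrpl41 by 0.99 (SE 0.10, adjusted p = 3.3e-05), while under YAP/TAZ siRNA the change was -0.04 (SE 0.09, adjusted p = 0.702). With the siRNA after heat it was higher by 1.09 (SE 0.10, adjusted p = 1.8e-05), the largest such change of the members.

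Mrpl50 (chr4:49512596-49521093, ENSMUSG00000044018), whose protein has no bacterial relative, was lower with heat under both siRNAs. It read 12.7, 13.9 and 13.2 FPKM in unheated control cells, 5.55 and 5.37 in heated control cells, 9.52, 9.27 and 9.43 in unheated YAP/TAZ siRNA cells, and 4.92, 5.48 and 5.92 in heated YAP/TAZ siRNA cells. The 2 heated groups overlapped and lay below both unheated groups, which did not overlap each other. Mrpl50 fell by 1.14 (SE 0.07, adjusted p = 2.2e-06) under control siRNA and by 0.70 (SE 0.06, adjusted p = 4.8e-05) under YAP/TAZ siRNA. The difference of 0.44 (SE 0.09, adjusted p = 0.00549) came with a fall of 0.45 with the siRNA without heat (SE 0.06, adjusted p = 2.7e-04) and a change of -0.01 after heat (adjusted p = 0.939).

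Mrpl44, an RNase III-like protein, read 38.1, 36.3 and 40.4 FPKM in unheated control cells, 19.5 and 19.7 in heated control cells, 33.3, 37.9 and 37.2 in unheated YAP/TAZ siRNA cells, and 29.2, 31.3 and 28.5 in heated YAP/TAZ siRNA cells. The heated control libraries were lowest, then the heated YAP/TAZ siRNA libraries, and the unheated groups overlapped. Its falls with heat were 0.93 (SE 0.07, adjusted p = 6.5e-06) under control siRNA and 0.28 (SE 0.06, adjusted p = 0.00551) under YAP/TAZ siRNA, which differed by 0.65 (SE 0.09, adjusted p = 7.4e-04). Mrpl51, another protein without a bacterial relative, fell by 0.90 (SE 0.10, adjusted p = 8.7e-05) with heat under control siRNA, from 38.3 ± 1.9 to 20.0 ± 1.1 FPKM. Under YAP/TAZ siRNA it stood at 28.8 ± 2.9 FPKM unheated and 29.7 ± 3.4 FPKM heated, and the difference of heat responses was 0.95 (SE 0.14, adjusted p = 8.6e-04).

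Mrpl45, which faces the inner membrane near the exit tunnel, Mrpl58, which can release peptides from stalled ribosomes, and Mrps30, which structures place in the large subunit, complete the named members of this role. Mrpl58 fell by 0.35 with heat under control siRNA (adjusted p = 0.0189), a call lost without unheated control replicate 3 (-0.32) or heated control replicate 1 (-0.29), and rose by 0.37 with heat under YAP/TAZ siRNA (adjusted p = 0.00962). Its difference of heat responses was 0.72 (SE 0.14, adjusted p = 0.00367), with group means of 6.74, 5.06, 5.87 and 7.89 FPKM. Mrpl45 had a change of 0.15 with heat under control siRNA (adjusted p = 0.21) and rose by 0.26 under YAP/TAZ siRNA (adjusted p = 0.0285), which was lost without any of 4 libraries, at 0.20 to 0.26. Its fall of 0.27 with the siRNA without heat (adjusted p = 0.0237) was lost without any of 3, at -0.26 to -0.19. Mrps30 fell by 0.29 with the siRNA without heat (adjusted p = 0.0336), lost without any of 4 libraries, at -0.30 to -0.21, and was not called otherwise. Over the 22 mitochondrion-specific large subunit genes, 0 were higher and 11 lower with heat under control siRNA, and 11 higher and 2 lower with heat under YAP/TAZ siRNA. The siRNA went with 11 lower and 0 higher without heat, and with 12 higher and 0 lower after heat, or 50, 50, 50 and 54.5% in the direction of most members.

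Mrps23, a mitochondrion-specific small subunit protein, was lower in all 4 comparisons between groups, and the 1 member called lower with YAP/TAZ siRNA after heat. It read 34.7, 34.3 and 38.7 FPKM in unheated control cells, 27.8 and 27.4 in heated control cells, 25.7, 26.7 and 29.3 in unheated YAP/TAZ siRNA cells, and 22.0, 19.6 and 22.1 in heated YAP/TAZ siRNA cells. The unheated control libraries were highest, the heated YAP/TAZ siRNA libraries lowest, and the other 2 groups overlapped. Heat lowered Mrps23 by 0.36 (SE 0.08, adjusted p = 0.00358) under control siRNA and by 0.34 (SE 0.07, adjusted p = 0.00303) under YAP/TAZ siRNA, and the siRNA lowered it by 0.39 (SE 0.07, adjusted p = 0.00131) without heat and by 0.37 (SE 0.08, adjusted p = 0.00313) after heat. The difference of the heat responses was 0.02 (SE 0.10, adjusted p = 0.897). Median-of-ratios scaling put the fall under control siRNA at -0.20, no longer called. Over the 10 mitochondrion-specific small subunit genes, 0 were higher and 6 lower with heat under control siRNA, and 7 higher and 1 lower with heat under YAP/TAZ siRNA. The siRNA went with 8 lower and 0 higher without heat, and with 4 higher and 1 lower after heat. The shares were 60, 70, 80 and 40%, the last near that of all tested genes.

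Mrps36 carries a ribosomal name but is known as a component of the oxoglutarate dehydrogenase complex of the citric acid cycle. It read 8.59, 8.04 and 8.95 FPKM in unheated control cells, 8.47 and 9.65 in heated control cells, 10.1, 8.69 and 10.7 in unheated YAP/TAZ siRNA cells, and 13.5, 12.5 and 15.1 in heated YAP/TAZ siRNA cells. Only the heated YAP/TAZ siRNA libraries stood apart, above all others. It rose by 0.44 (SE 0.09, adjusted p = 0.00329) with heat under YAP/TAZ siRNA and was higher by 0.55 (SE 0.10, adjusted p = 0.00148) with the siRNA after heat. The difference of heat responses was 0.36 (SE 0.13, adjusted p = 0.0597).

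The mitoribosome works within a larger set of genes, which are given here by lists of known members. The counts of these and the following lists are read beside all tested genes. Of those, 36.9% were lower and 12.4% higher with heat under control siRNA, and 31.7% and 18.6% under YAP/TAZ siRNA. Under control siRNA the shares were 24.5 and 19.9% with median-of-ratios scaling and 25.8 and 18.5% with quantile normalization. For the difference of heat responses, 13.4% of all tested genes were lower and 24.6% higher. With the siRNA without heat, 21.9% were lower and 27.1% higher. Of 5 mitoribosome subunits with other symbols, 4 were higher with heat under YAP/TAZ siRNA and 1 was higher and 1 lower under control siRNA. Among them Dap3, a small subunit GTP-binding protein, rose by 0.22 (adjusted p = 0.00334) with heat under YAP/TAZ siRNA and changed by 0.01 under control siRNA. Factors of mitoribosome assembly and RNA modification were mostly lower under control siRNA. Of 26 tested, 22 were lower and 1 higher with heat under control siRNA (14 and 1 after median-of-ratios scaling, 15 and 1 after quantile normalization), with Ddx28, a helicase of large subunit assembly, at -1.59, and 2 were higher and 8 lower under YAP/TAZ siRNA. Mitochondrial tRNA synthetases were lower for 17 of 20 with heat under control siRNA (15 and 13 with these 2 scalings), with 2 higher and 5 lower under YAP/TAZ siRNA. Their medians under control siRNA were -0.46 and -0.45, against -0.20 for the members. Under YAP/TAZ siRNA the medians of both lists were -0.03 and -0.04, and they turned to 0.06 and 0.03 with median-of-ratios scaling.

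Of 15 mitochondrial translation factors, 9 were lower and 0 higher with heat under control siRNA, and 5 higher and 2 lower under YAP/TAZ siRNA. Under control siRNA, median-of-ratios scaling gave 5 lower and 3 higher and quantile normalization 5 and 2, and under YAP/TAZ siRNA 1 total per library gave 5 lower and 2 higher. Tufm, the elongation factor that brings tRNA to the mitoribosome, fell by 0.42 (adjusted p = 3.1e-04) and rose by 0.44 (adjusted p = 2.0e-04) in these comparisons, a difference of 0.86 (SE 0.08, adjusted p = 6.5e-05). It was lower by 0.66 with the siRNA without heat (adjusted p = 8.8e-06) and higher by 0.20 after heat (adjusted p = 0.018). Among 10 genes of mitochondrial transcription and DNA upkeep, 2 were higher and 5 lower with heat under control siRNA, and 0 higher and 7 lower under YAP/TAZ siRNA. Polrmt, the mitochondrial RNA polymerase, fell by 0.99 (adjusted p = 1.7e-05) and by 0.42 (adjusted p = 0.00197), and Tfam, which packages mitochondrial DNA, fell by 0.17 (adjusted p = 0.0274) under control siRNA and changed by 0.06 (adjusted p = 0.343) under YAP/TAZ siRNA.

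The 13 messages that the mitoribosome translates had signs of their own. With heat under control siRNA 11 of them were higher and 0 lower (median 0.27), for example mt-Nd4, a subunit of complex I, by 0.72 (adjusted p = 9.0e-06). Without heated control replicate 1, which leaves that group with 1 library, fewer were called higher and their median was 0.28. Quantile normalization, which put their median at 0, called 1 higher and 2 lower. Heat under YAP/TAZ siRNA went with 1 higher and 4 lower, but with 4 higher and 1 lower under median-of-ratios scaling. The difference of heat responses was lower for 7 and higher for 0 (median -0.38), where it was higher for 53 of the 78 members. For mt-Nd1, also of complex I, it was -0.57 (SE 0.08, adjusted p = 9.0e-04). Quantile normalization called 3 lower and 1 higher in that comparison.

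Other large families of ribosomes and respiration were set beside the members. Of 75 tested nuclear oxidative phosphorylation subunits, 66 were higher and 1 lower with heat under YAP/TAZ siRNA (median 0.45), and 2 were higher and 6 lower under control siRNA (median -0.05, which turned to 0.11 with median-of-ratios scaling). The counts under control siRNA were 10 higher and 2 lower with that scaling, 7 and 9 with quantile normalization and 2 and 21 with 1 total per library. With the siRNA without heat 14 were higher and 9 lower (8 and 11 after median-of-ratios scaling, 21 and 6 after quantile normalization), where the members had 1 higher and 44 lower. Of 80 tested cytosolic ribosomal protein genes, 75 were higher and 1 lower with heat under YAP/TAZ siRNA (median 0.77), 11 were higher and 1 lower under control siRNA (median 0.09; 26 and 1 after median-of-ratios scaling, 11 and 7 after quantile normalization), and 26 were lower and 0 higher with the siRNA without heat (median -0.22). The difference of heat responses was higher for 48 of the 75 and for 63 of the 80, and lower for 0 of either. Leaving out heated control replicate 1, which leaves that group with 1 library, lowered both counts. It lowered those of the members and of all tested genes as well. No test compared these lists with the members.

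**Figure D4:**
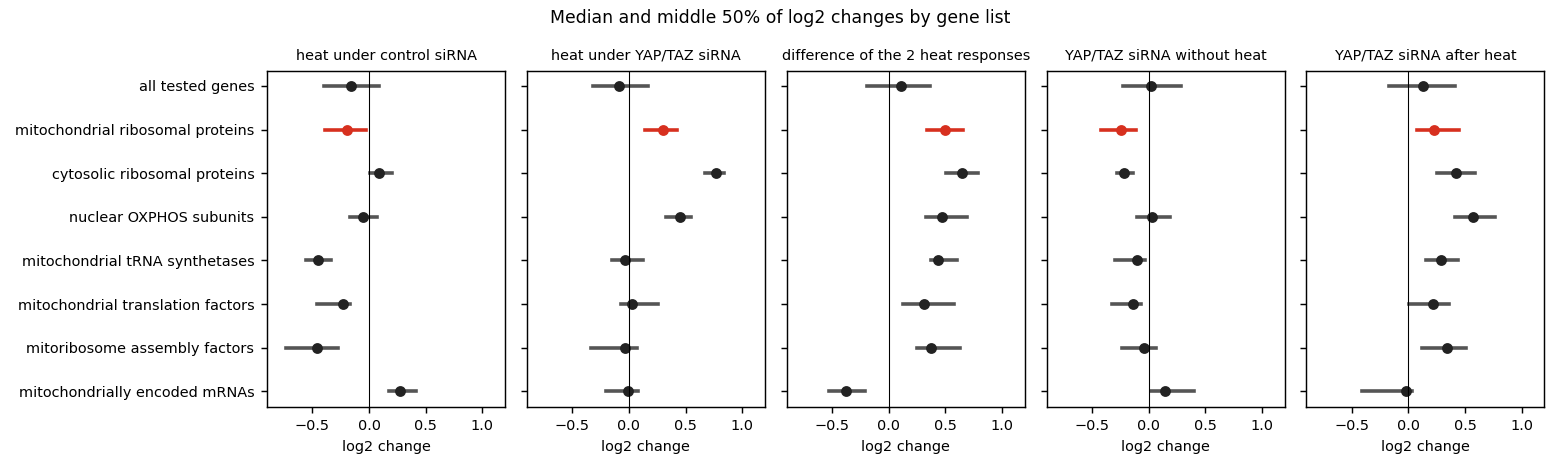
For 8 gene lists (rows), the point is the median log2 change of the tested genes and the line spans the middle 50%, in each of the 5 comparisons (columns), on the log2(FPKM + 1) scale. The mitochondrial ribosomal proteins (red) lie near all tested genes for heat under control siRNA, at -0.20 and -0.16, and above them for heat under YAP/TAZ siRNA, at 0.30 and -0.09.

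Members often start close to another gene. A protein-coding gene on the opposite strand started within 1000 bases for 33 of the 78 members (42.3%), against 1897 of 10385 tested protein-coding genes (18.3%). One such pair joins 2 members, Mrps11 and Mrpl46 on chromosome 7, which meet head to head. Mrps11 fell by 0.37 (adjusted p = 0.00934) with heat under control siRNA and rose by 0.34 (adjusted p = 0.00773) under YAP/TAZ siRNA. Mrpl46 fell by 0.76 (adjusted p = 8.9e-05) and changed by -0.06 (adjusted p = 0.555) in the same comparisons, with overlapping first exons. The other pairs did not always move alike. Mrps18b starts 45 bases from Ppp1r10, which encodes a regulator of protein phosphatase 1, and with heat under control siRNA Ppp1r10 rose by 1.72 while Mrps18b fell by 0.45. Mrpl43 fell by 0.61 in that comparison and its partner Twnk, the mitochondrial DNA helicase, rose by 0.40. Mrpl49 and Fau, which encodes a cytosolic ribosomal protein, were 59 bases apart and changed by 0.56 and 0.79 with heat under YAP/TAZ siRNA. Of the 33 members, 15 start inside the partner gene. Where exons of such pairs overlap, fragments counted without strand could not be told apart. Over the 26 tested partners that are not members, 11 were lower and 4 higher with heat under control siRNA, 6 lower and 5 higher with heat under YAP/TAZ siRNA, and 7 lower and 5 higher with the siRNA without heat. In the same order, 36.9, 31.7 and 21.9% of all tested genes were lower, and 12.4, 18.6 and 27.1% higher. The difference of heat responses was higher for 12 of the 26 and lower for 3, and the siRNA after heat went with 12 higher and 3 lower as well. At 46.2% both shares lie above the 24.6% and 36.3% of all tested genes that were higher.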

How the data were processed

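Per the labels' protocols, 2 µg of Trizol-extracted RNA per sample went into libraries made with the NEBNext Ultra RNA kit. Reads were processed with Trimmomatic 0.36, HISAT2, SAMtools and StringTie on GRCm38, and the submitters' processing notes also name DESeq2. The authors deposited 1 table of FPKM values, with no counts; the sources used here give neither the annotation release nor the use of strand. Of its 54686 entries, 54104 carry Ensembl identifiers, of which 54038 have a symbol, and 582 are assembled loci.

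The 12626 genes that reached 1 FPKM in 2 or more libraries were tested on log2(FPKM + 1) with limma 3.58.1 (trend; R 4.3.3) in 1 fit over the 11 libraries and 4 groups, with 7 residual degrees of freedom, and Benjamini-Hochberg adjustment over all tested genes. A gene is called at an adjusted p under 0.05. No count model was used, since StringTie values do not give back whole reads. On data simulated for each comparison (200 genes changed), the share recovered at a log2 change of 1 was 83%, 91%, 69%, 88% and 90%, and at 0.5 it was 55%, 62%, 34%, 53% and 60%, in the order heat under control siRNA, heat under YAP/TAZ siRNA, difference, siRNA without heat and siRNA after heat. Far more genes were called in the data, for example 1560 higher and 4654 lower with heat under control siRNA. The adjusted cut-off depends on the share of changed genes, so the simulated shares may not hold for the data. Depth was estimated from the smallest FPKM steps of single-exon genes.

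Members and lists were chosen with earlier results of these data known. Named members are the 4 called members with the highest and the 4 with the lowest change per comparison whose groups do not overlap (for the difference, by size alone), members called against the majority, the 3 highest and 3 lowest levels, and a list of stalk, exit tunnel, decoding and S18-related proteins. Mrps11, Mrpl23, Mrpl43, Mrpl46, Mrpl48, Mrpl49 and Mrpl53 are named outside that rule, after their values were seen. Alternatives were another pseudocount (0.1), filter (none, 5 FPKM), scaling, a robust fit, a replicate block, only the groups compared, members without exon overlap (added after seeing the data) and each library left out.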

Additional observations from a re-analysis of the deposited data

Results flagged for a closer look

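The heat responses under the 2 siRNAs were called different for 53 members by the interaction term of the limma fit, and each of these differences was positive. Among the members described by name, the log2 difference (YAP/TAZ siRNA minus control siRNA) was 1.32 for Mrpl18, 1.04 for Mrps21, 0.95 for Mrpl51, 0.94 for Mrpl41, 0.88 for Mrpl15, 0.84 for Mrpl12, 0.82 for Mrpl11, 0.79 for Mrpl20 and 0.75 for Mrpl34. It was 0.74 for Mrpl19, 0.72 for Mrpl58, 0.71 for Mrps18b, 0.65 for Mrpl44, 0.65 for Mrps12, 0.64 for Mrps2, 0.62 for Mrps28 and 0.61 for Mrpl14. The smaller called differences were 0.52 for Mrpl1, 0.49 for Mrps18c, 0.47 for Mrpl24, 0.44 for Mrpl50 and 0.44 for Mrpl13. With groups of 2 and 3 libraries, no group was large enough to look for a single library far from the rest.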

How the results depend on the processing

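The heated control group has 2 libraries, and its replicate 1 moved the counts most. Leaving out each library in turn, the members called lower with heat under control siRNA numbered 17 to 31 and those higher 0 to 2, with heat under YAP/TAZ siRNA 3 to 5 were lower, the difference of heat responses was higher for 32 to 59, YAP/TAZ siRNA without heat went with 1 to 4 higher, and after heat with 22 to 38 higher and 1 to 2 lower. Where that leaves heated control cells with 1 library, its spread is assumed to equal that of the other groups. These ranges count members only. Without heated control replicate 1, fewer of all tested genes were called as well in the comparisons that use heated control cells. The median member was then at -0.16 for heat under control siRNA, 0.46 for the difference and 0.22 for the siRNA after heat. In the same order the median tested gene was at -0.16, 0.11 and 0.14. Of these 3, the members stood furthest from all tested genes in the difference. Median-of-ratios scaling gave 14 lower and 9 higher with heat under control siRNA and 6 lower with the siRNA after heat, and quantile normalization gave 16 and 9, 4 lower after heat and 3 higher without heat. With 1 total per library, heat under YAP/TAZ siRNA went with 32 higher and 9 lower, the siRNA after heat with 4 lower, and the change of Mrps2 with heat under YAP/TAZ siRNA turned to -0.024. Only the groups compared gave 2 higher with heat under control siRNA. The replicate block gave 2 and 3 higher for heat under control siRNA and for the siRNA without heat, and 61 members higher for the difference. Over all tested genes, the correlation of deviations ran from -0.11 to 0.134 (median 0.0096) over 15 same-numbered pairs, with 3 over 0.1, so the numbers were not taken to pair the libraries, although replicate 3 had the highest member sum in each group. Of the calls named in the text, the block ended 1, median-of-ratios scaling 14, quantile normalization 11, 1 total per library 9 besides Mrps2, no filter 11 and only the groups compared 8; pseudocount 0.1, a robust fit and a 5 FPKM filter ended 0. Among those ended by median-of-ratios scaling were the falls of Mrpl11, Mrpl12, Mrpl14, Mrpl34, Mrpl58, Mrps21 and Mrps23 with heat under control siRNA. Of the 45 members without exon overlap, 0 were higher with heat under control siRNA or with the siRNA without heat, and 2.22% were lower after heat. The cause of these changes was not tested.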
